A study of Mus musculus with 2 samples.

Results

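The mitochondrial ribosomal protein genes are the nuclear genes named Mrpl or Mrps with a number, for proteins of the large and the small subunit of the ribosome inside mitochondria. They were chosen by name from the rows typed as mRNA, which gave 76 genes among 44787 rows, 47 named for the large subunit and 29 for the small one. RNA came from skeletal muscle of the hindlimb of C57BL/6 mice, taken on postnatal day 30, and was sequenced as 1 library of the genotype SRSF1-MKO and 1 library of wild type (WT). SRSF1 is an RNA-binding splicing factor of the SR protein family. MKO is not spelled out in the labels. The sources used here do not give the driver of any deletion, the sex or the number of animals behind each library. The 2 description lines of each sample contradict each other about which column of the table is which, so each column was read as the genotype in its own name, and every direction rests on that reading.

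The mitochondrial ribosome translates the few messenger RNAs of mitochondrial DNA, all for membrane subunits of oxidative phosphorylation. Its ribosomal RNAs, 12S in the small and 16S in the large subunit, come from mitochondrial DNA, while all its proteins are made in the cytosol from nuclear genes and imported. Many of these proteins have bacterial homologues, and others were added in the course of mitochondrial evolution. Skeletal muscle fibres depend on this system for their respiratory chain.

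The values are FPKM, reads scaled by transcript length and by the library's total, in which levels of different genes can be compared. The log2 ratio of a gene is log2 of its FPKM + 1 in SRSF1-MKO over its FPKM + 1 in WT. It was taken in the 10478 genes whose mean FPKM was at least 1, and a gene is called higher or lower at 1.5-fold on that scale. With 1 library per genotype there is no replicate check and no test, and members of a gene family are not replicates. Library totals recovered from the values were 21350284 reads in SRSF1-MKO and 23146640 reads in WT, and the intervals given with FPKM ratios are 95% exact binomial intervals that cover counting error only. Over all 10478 genes the median log2 ratio was 0.21, and over the 4991 whose mean was at least 5 FPKM it was 0.32, so the median gene was higher in SRSF1-MKO on the deposited scale. Srsf1 itself had 6.70 FPKM in SRSF1-MKO and 13.7 FPKM in WT, a log2 ratio of -0.93. Over all genes 23.7% were called higher and 8.13% lower. Of 12 muscle fibre markers, all measured, 5 were called higher (Mb, Des, Myh1, Myh2 and Myh7) and 3 lower (Ckm, Tnnt3 and Myh4). Among these myosin genes, Myh2 had 2399 FPKM in SRSF1-MKO and 78.2 FPKM in WT, and Myh4 had 7176 FPKM in SRSF1-MKO and 28777 FPKM in WT. The summed level of the 12 markers was 50993 FPKM in SRSF1-MKO and 80973 FPKM in WT. Macrophage markers were called higher for 6 and lower for 0 of 11 measured, with a sum over all 14 of 118 FPKM in SRSF1-MKO and 51.0 FPKM in WT, and none at 0, and the macrophage marker Cd68 had 7.99 FPKM in SRSF1-MKO and 0.752 FPKM in WT. Schwann cell markers were called higher for 3 and lower for 0 of 4 measured, with a sum over all 7 of 90.7 FPKM in SRSF1-MKO and 46.5 FPKM in WT, and none at 0. Markers of other cells went the other way or in neither direction. Of 7 measured adipocyte markers 0 were called higher and 6 lower, although their sum over all 10 was 353 FPKM in SRSF1-MKO and 292 FPKM in WT, with 1 marker at 0 in WT. Of 8 measured fibro-adipogenic markers 0 were called higher and 3 lower, with a sum of 468 FPKM in SRSF1-MKO and 701 FPKM in WT, and of 8 endothelial markers 0 higher and 2 lower, with a sum of 51.3 FPKM in SRSF1-MKO and 74.5 FPKM in WT. Of 5 measured erythroid markers none was called either way, with a sum over all 7 of 347 FPKM in SRSF1-MKO and 384 FPKM in WT, and 1 marker at 0 in SRSF1-MKO. The part of these cells in the results was not tested, and in bulk tissue a change in the number of cells of a type and a change in RNA per cell cannot be told apart.

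Messenger RNAs for mitochondrial ribosomal proteins were mostly higher in SRSF1-MKO muscle. All 76 were measured, and 51 of them (67.1%) were called higher, where 23.7% of all 10478 genes were. Only Mrps31 was called lower, 1.32% of the members, where 8.13% of all genes were. The log2 ratio had a median of 0.70 over the members, with quartiles of 0.50 and 0.90, against a median of 0.21 and quartiles of -0.14 and 0.56 over all genes. It was above 0 in 70 of the 76 members, or 92.1%, and in 65.9% of all genes. Among genes with a mean of at least 5 FPKM, 51 of 73 members (69.9%) were called higher against 31.5%, 1 was called lower against 8.56%, and 93.2% of the members were above 0 against 72% of the genes. At 2-fold the members stood closer to the rest, with 11 of 76 (14.5%) higher against 9.44% of all genes, and 0 lower against 3.12%. Most members were higher by a moderate amount, with 46 between 0.5 and 1 on the log2 scale. Summed over the family, the level was 3080 FPKM in SRSF1-MKO and 1790 FPKM in WT, a ratio of 1.72, and the family took 0.536% of all FPKM in SRSF1-MKO and 0.387% in WT. The median member stood at 23.8 FPKM in SRSF1-MKO and at 14.4 FPKM in WT. The members ranged from 2.88 to 497 FPKM in SRSF1-MKO and from 2.59 to 312 FPKM in WT, and the order of their levels was nearly shared between the libraries (Spearman's rho 0.936 over the 76 members, a description).

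**Figure D1:**
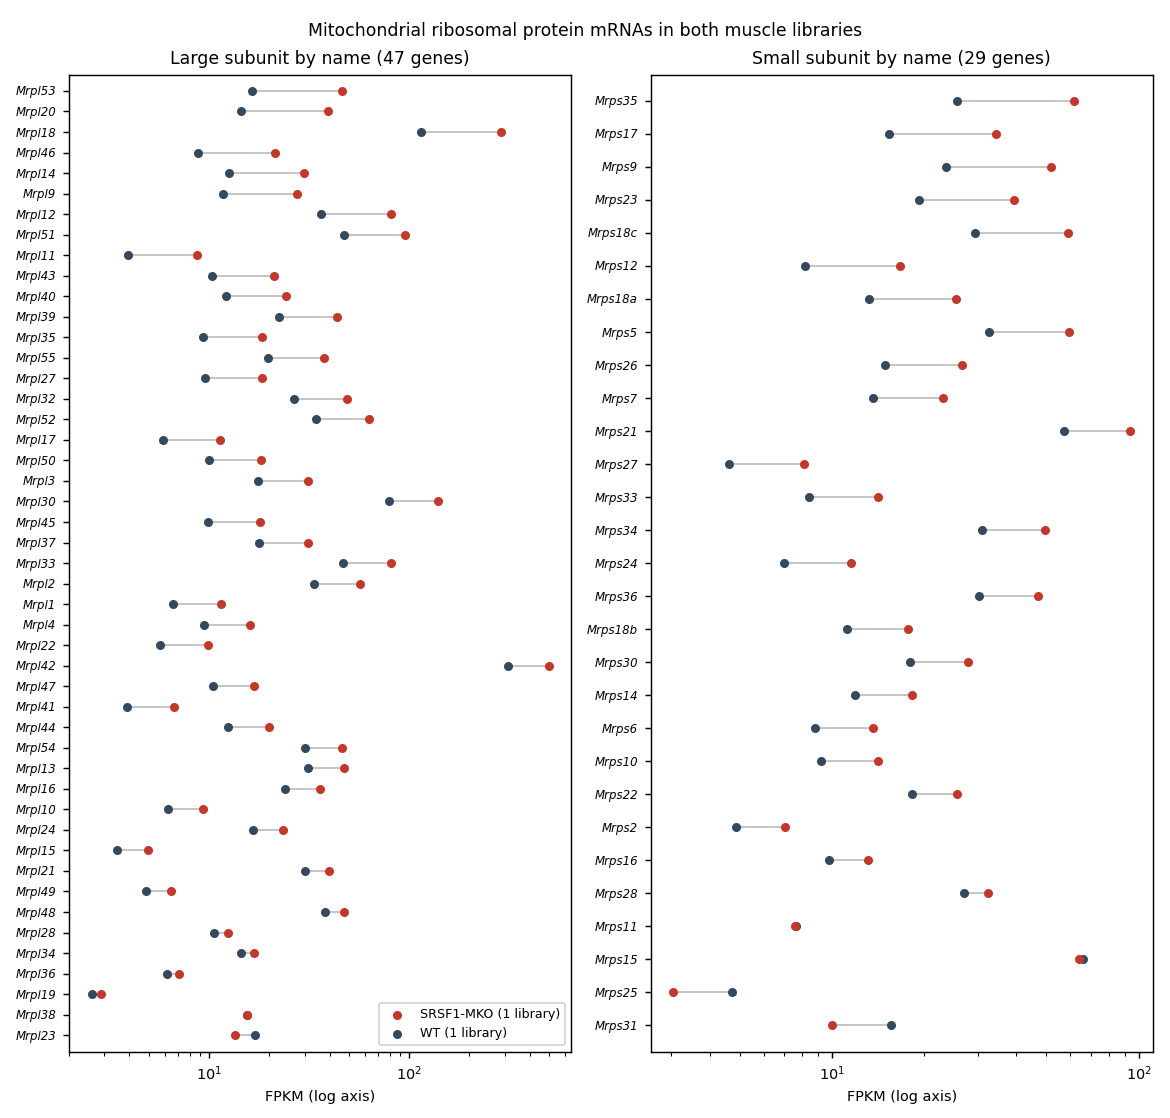
FPKM of each of the 47 large-subunit genes (left) and 29 small-subunit genes (right) in SRSF1-MKO (red points) and WT (dark points), 1 library each, on a log axis, with genes ordered by log2 ratio. The red point lies right of the dark one in 70 of 76 genes, and the genes at the bottom of each panel, among them Mrpl23, Mrps25 and Mrps31, have the red point on the left.

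The size of this excess depended on the scale. With the median of 0.32 over the well-expressed genes taken as 0, 19 members (25%) were called higher, where 11.4% of all genes were. On the same scale 3 members (3.95%) were called lower, where 18.1% of all genes were. Below, the all-gene median means this 0.32, and not the 0.21 over all 10478 genes. With both libraries rescaled to a common FPKM sum, as in TPM, 23 members (30.3%) were called higher against 14.6% of all genes, and 3 lower against 17.4%. The FPKM sum of the 15 RNAs of mitochondrial DNA was 201595 in SRSF1-MKO and 89648 in WT, and it enters that scaling. With RNAs of mitochondrial DNA and ribosomal RNA rows left out of the common sum, 55 members (72.4%) were called higher against 27.5% of all genes, and 1 lower (1.32%) against 9.91%, and the family's median was 0.74. The 3 called lower with the median as 0 and under TPM were Mrps31, Mrps25 and Mrpl23. A ratio above that median was found in 64 members (84.2%) and in 40.6% of all genes. The family's median log2 ratio was 0.37 relative to the well-expressed genes and stood at 0.43 after TPM scaling. The direction was the same on the deposited scale, relative to the median and in TPM for 70 members, of which 64 were higher (40 large-subunit and 24 small-subunit genes) and 6 lower. The other 6, Mrpl48, Mrps28, Mrpl28, Mrpl34, Mrpl36 and Mrpl19, were above 0 as deposited, by 0.11 to 0.31, and below 0 relative to the median, and all of these but Mrpl48 were also below 0 in TPM.

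**Figure D2:**
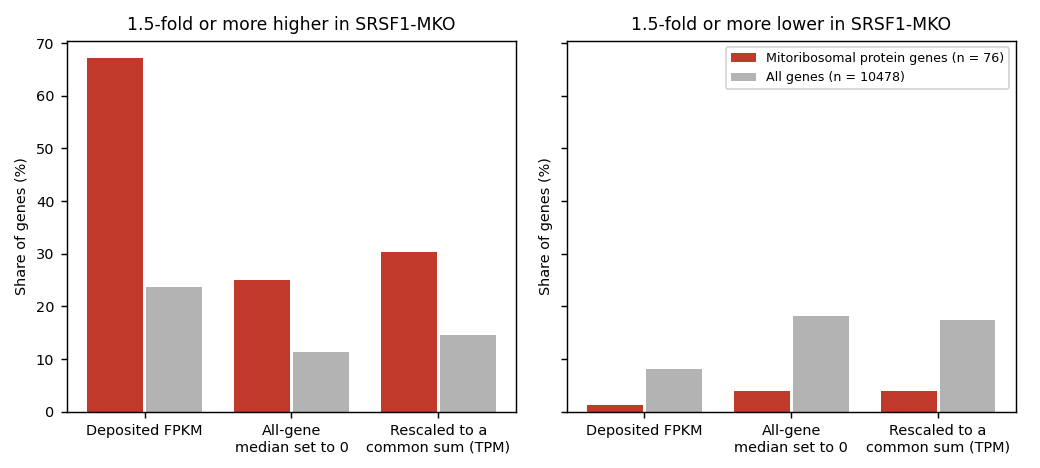
Share of genes (%) called at 1.5-fold higher (left) and lower (right) in SRSF1-MKO under 3 scalings, for the 76 mitoribosomal protein genes (red) and all 10478 measured genes (grey). The members' share exceeds that of all genes on the left under each of these 3 scalings, from 67.1% against 23.7% to 25% against 11.4%, and lies below it on the right.

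In the large subunit 33 of 47 genes (70.2%) were called higher and 0 lower, and the log2 ratio had a median of 0.78 and a range of -0.31 to 1.44. In the small subunit 18 of 29 genes (62.1%) were called higher and 1 lower, with a median of 0.65 and a range of -0.59 to 1.24. The large subunit's median was 0.13 above the small subunit's. The SD of the log2 ratio among genes was 0.36 in the large and 0.43 in the small subunit, and this difference of medians was not tested. Relative to the all-gene median, 13 large-subunit genes were called higher and 1 lower, against 6 higher and 2 lower in the small subunit. The summed level of the large subunit was 2205 FPKM in SRSF1-MKO and 1243 FPKM in WT, and that of the small subunit was 875 FPKM in SRSF1-MKO and 547 FPKM in WT. The large subunit's sum was thus 2.52 times the small subunit's in SRSF1-MKO and 2.27 times in WT. Without Mrpl42 and Mrpl18, the most abundant pair, these ratios were 1.62 in SRSF1-MKO and 1.49 in WT. Genes with a bacterial homologue and genes without a clear one had nearly the same median, 0.70 over 46 and 0.69 over 30 genes. The 6 lowest members held both kinds. Diverged homologues, among them Mrps18a and Mrps18b, were counted as without a clear one. The share called higher was 58.7% with a homologue and 80% without a clear one, where 23.7% of all genes were. It was 63.3% and 82.4% in the large subunit and 50% and 76.9% in the small one. This difference was not tested.

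Genes for proteins at the L7/L12 stalk, where translation factors dock on the large subunit, included the largest difference of the family. Mrpl53 is a stalk-base protein with no bacterial counterpart, and its gene lies on the plus strand of chromosome 6 at 83109108 to 83109932 (mm10). Mrpl53 had 46.1 FPKM in SRSF1-MKO and 16.3 FPKM in WT, a log2 ratio of 1.44 and an FPKM ratio of 2.83 (interval 2.45 to 3.28). Mrpl12, the stalk protein homologous to bacterial L7/L12 and also reported to bind the mitochondrial RNA polymerase, had 81.6 FPKM in SRSF1-MKO and 36.5 FPKM in WT (log2 ratio 1.14, FPKM ratio 2.24, interval 2.08 to 2.40). Mrpl11, which forms the base of the stalk with ribosomal RNA, had 8.71 FPKM in SRSF1-MKO and 3.93 FPKM in WT, a log2 ratio of 0.98. Mrpl10, the protein that holds the Mrpl12 dimers, had 9.36 FPKM in SRSF1-MKO and 6.27 FPKM in WT, a log2 ratio of 0.51 that missed the 1.5-fold mark. The median of the 4 stalk genes was 1.06, with 3 of 4 called higher. For this and the other structural sites below, the shares over all genes were 23.7% higher and 8.13% lower. The genes listed for a site need not cover all of its proteins.

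The 5 genes listed for the central protuberance, at the top of the large subunit facing the head of the small one, were split. Mrpl18, the homologue of the bacterial protein that binds 5S ribosomal RNA, had 287 FPKM in SRSF1-MKO and 115 FPKM in WT (log2 ratio 1.31, FPKM ratio 2.49, interval 2.39 to 2.60) and was second in level among the members. Its span, on the minus strand of chromosome 17 at 12911345 to 12916478, overlaps that of Tcp1 on the other strand, which had 118 FPKM in SRSF1-MKO and 97.2 FPKM in WT (log2 ratio 0.28). The sources used here do not say whether the libraries keep the strand. Mrpl46 had 21.4 FPKM in SRSF1-MKO and 8.82 FPKM in WT (log2 ratio 1.19, FPKM ratio 2.43, interval 2.08 to 2.86), and Mrpl40 had a log2 ratio of 0.94. Their neighbour in the structure, Mrpl38, had 15.5 FPKM in SRSF1-MKO and 15.6 FPKM in WT, a log2 ratio of -0.0046 and an FPKM ratio of 0.997 (interval 0.877 to 1.13). Mrpl48, also listed for this site, had 47.2 FPKM in SRSF1-MKO and 37.8 FPKM in WT, a log2 ratio of 0.31. So 3 of these 5 genes were called higher, and mRNAs for proteins of 1 structural site did not share a ratio.

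Around the peptidyl transferase centre, where peptide bonds are formed, the 5 genes Mrpl2, Mrpl3, Mrpl4, Mrpl16 and Mrpl27 were more alike, from 0.56 to 0.88, with 4 of 5 called higher. Mrpl2 had 56.9 FPKM in SRSF1-MKO and 33.6 FPKM in WT, and Mrpl27 had 18.4 FPKM in SRSF1-MKO and 9.53 FPKM in WT. At the exit of the peptide tunnel 3 of 5 genes were called higher. Mrpl45, which tethers the ribosome to the inner membrane, had 17.9 FPKM in SRSF1-MKO and 9.93 FPKM in WT, a log2 ratio of 0.79. Mrpl23, a protein of the tunnel exit, was the lowest large-subunit gene, with 13.5 FPKM in SRSF1-MKO and 17.0 FPKM in WT (log2 ratio -0.31, FPKM ratio 0.793, interval 0.655 to 0.952). Its pseudogene row Mrpl23-ps1, which is not a member, had 6.41 FPKM in SRSF1-MKO and 10.5 FPKM in WT (log2 ratio -0.63). Reads shared by such copies could be split between them by the authors' counting, whose rule the sources used here do not state, and the value of Mrpl23 is uncertain.

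Other large-subunit genes completed the upper end. Mrpl20, whose bacterial homologue is needed for assembly of the large subunit in Escherichia coli, had 39.2 FPKM in SRSF1-MKO and 14.4 FPKM in WT (log2 ratio 1.38, FPKM ratio 2.71, interval 2.35 to 3.15). Mrpl14, a protein of the subunit interface and the docking site of the assembly factor Malsu1, had 29.8 FPKM in SRSF1-MKO and 12.6 FPKM in WT (log2 ratio 1.18, FPKM ratio 2.37, interval 1.99 to 2.84). Mrpl9, the homologue of bacterial L9, had 27.7 FPKM in SRSF1-MKO and 11.7 FPKM in WT (log2 ratio 1.17, FPKM ratio 2.36, interval 2.11 to 2.65). The most abundant member was Mrpl42, a mitochondria-specific protein, with 497 FPKM in SRSF1-MKO and 312 FPKM in WT (log2 ratio 0.67, FPKM ratio 1.59, interval 1.54 to 1.65). Mrpl30 followed Mrpl42 and Mrpl18 in level, with 139 FPKM in SRSF1-MKO and 79.5 FPKM in WT (log2 ratio 0.80, interval of the FPKM ratio 1.62 to 1.88). Mrpl51 had 95.4 FPKM in SRSF1-MKO and 47.3 FPKM in WT (log2 ratio 1.00, interval 1.94 to 2.10). The Mrpl51 interval is too narrow, because the transcript length used exceeds the deposited span. Mrpl19 was the least abundant member, with 2.88 FPKM in SRSF1-MKO and 2.59 FPKM in WT (log2 ratio 0.11, FPKM ratio 1.11, interval 0.943 to 1.31), and Mrpl36 had 7.11 FPKM in SRSF1-MKO and 6.18 FPKM in WT (log2 ratio 0.18, interval 0.900 to 1.47). Both intervals include 1. High-level members tended to have the larger ratio, with a Spearman's rho of 0.372 between mean FPKM and log2 ratio over the 76 genes, given as a description because the pseudocount lowers the ratio of genes with low values.

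The head of the small subunit held both ends of its range. Mrps35, a mitochondria-specific head protein, had 61.6 FPKM in SRSF1-MKO and 25.6 FPKM in WT (log2 ratio 1.24, FPKM ratio 2.41, interval 2.30 to 2.53). Mrps9, the homologue of a bacterial protein whose tail reaches the transfer RNA sites, had 51.7 FPKM in SRSF1-MKO and 23.5 FPKM in WT (log2 ratio 1.11, interval of the FPKM ratio 2.02 to 2.40). Mrps31, also a mitochondria-specific head protein, was the lowest of all 76, with 10.0 FPKM in SRSF1-MKO and 15.6 FPKM in WT (log2 ratio -0.59, FPKM ratio 0.641, interval 0.558 to 0.738). It is encoded on the plus strand of chromosome 8 at 22411340 to 22429665. Of 8 head genes 5 were called higher and 1 lower, and the median was 0.67.

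On the platform, the part of the small subunit beside the messenger RNA exit, 2 of 5 genes were called higher. Mrps18c had 58.7 FPKM in SRSF1-MKO and 29.3 FPKM in WT, a log2 ratio of 0.98, and Mrps21 had 94.0 FPKM in SRSF1-MKO and 57.1 FPKM in WT (log2 ratio 0.71, interval of the FPKM ratio 1.48 to 1.84). Mrps15, an RNA-binding platform protein and the second most abundant gene named for the small subunit, had 63.9 FPKM in SRSF1-MKO and 66.1 FPKM in WT (log2 ratio -0.049, FPKM ratio 0.966, interval 0.896 to 1.04). Mrps11, which lines the messenger RNA path, had 7.59 FPKM in SRSF1-MKO and 7.66 FPKM in WT (log2 ratio -0.012, FPKM ratio 0.990, interval 0.801 to 1.23). Neither of these differed beyond counting error as deposited. Elsewhere in the small subunit, Mrps17, which binds the 12S RNA, had 34.3 FPKM in SRSF1-MKO and 15.4 FPKM in WT (log2 ratio 1.11, interval of the FPKM ratio 1.99 to 2.51), and Mrps12, a protein of the decoding centre, had 16.7 FPKM in SRSF1-MKO and 8.15 FPKM in WT (log2 ratio 0.95). Mrps25, a mitochondria-specific protein, had 3.04 FPKM in SRSF1-MKO and 4.74 FPKM in WT (log2 ratio -0.51, FPKM ratio 0.642, interval 0.565 to 0.728), nearly the FPKM ratio of Mrps31. Its span, on the minus strand of chromosome 6 at 92169512 to 92184023, overlaps Nr2c2 on the other strand, which had 2.08 FPKM in SRSF1-MKO and 1.67 FPKM in WT. Over the whole family 66 of 76 counting intervals lay above 1, 7 included 1 and 3, those of Mrps31, Mrps25 and Mrpl23, lay below 1.

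Several members carry names that differ from their place in the structure. Mammals have 3 homologues of bacterial S18, which occupy different sites. Mrps18c stands in the S18 position, Mrps18b elsewhere in the small subunit, and Mrps18a in the large subunit. Their log2 ratios were 0.98 for Mrps18c, 0.89 for Mrps18a (25.5 FPKM in SRSF1-MKO and 13.3 FPKM in WT, interval of the FPKM ratio 1.65 to 2.24) and 0.61 for Mrps18b (17.7 FPKM in SRSF1-MKO and 11.2 FPKM in WT, interval 1.31 to 1.88), so all 3 were called higher. Mrps30, which is also a large-subunit protein, had 27.7 FPKM in SRSF1-MKO and 18.0 FPKM in WT (log2 ratio 0.59, interval 1.43 to 1.65), just past the 1.5-fold mark. Mrps36, now known as a component of the 2-oxoglutarate dehydrogenase complex, had 47.1 FPKM in SRSF1-MKO and 30.2 FPKM in WT (log2 ratio 0.62, interval 1.37 to 1.78). It has 2 pseudogene rows in the table, Mrps36-ps1 with 9.36 FPKM in SRSF1-MKO and 5.42 FPKM in WT, and Mrps36-ps2 with 3.76 FPKM in SRSF1-MKO and 2.29 FPKM in WT, so its reads may also be shared.

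A further 7 mitoribosomal proteins have symbols outside the naming rule, and all 7 log2 ratios were above 0, from 0.26 to 0.90. Of these, 3 (42.9%) were called higher and 0 lower, where 23.7% and 8.13% of all genes were. Their median was 0.56, and relative to the all-gene median 0 were called higher. Chchd1, a small-subunit protein, had 110 FPKM in SRSF1-MKO and 58.5 FPKM in WT (log2 ratio 0.90, interval of the FPKM ratio 1.73 to 2.05). Gadd45gip1, of the large subunit, had 19.6 FPKM in SRSF1-MKO and 11.2 FPKM in WT (0.75), and Aurkaip1, of the small subunit, had 82.6 FPKM in SRSF1-MKO and 49.6 FPKM in WT (0.72). The other 4 stayed under 1.5-fold. Mrp63 had 5.22 FPKM in SRSF1-MKO and 3.21 FPKM in WT (0.56), and Ict1, a peptidyl-tRNA hydrolase built into the large subunit, had 28.7 FPKM in SRSF1-MKO and 20.4 FPKM in WT (0.48). Ptcd3, an RNA-binding protein of the small subunit, had 27.7 FPKM in SRSF1-MKO and 20.5 FPKM in WT (0.42), and Dap3, its GTP-binding protein, had 4.57 FPKM in SRSF1-MKO and 3.65 FPKM in WT (0.26, interval 0.969 to 1.62).

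The ribosomal RNAs that these proteins assemble with were also called higher. The 12S ribosomal RNA (Rnr1) had 14468 FPKM in SRSF1-MKO and 3661 FPKM in WT, an FPKM ratio of 3.95 (interval 3.92 to 3.98). The 16S ribosomal RNA (Rnr2) had 10912 FPKM in SRSF1-MKO and 3071 FPKM in WT, an FPKM ratio of 3.55 (interval 3.53 to 3.58). The log2 ratios of Rnr1 and Rnr2, 1.98 and 1.83, exceeded that of every one of the 76 protein genes, whose highest was 1.44. Of the 13 messenger RNAs of mitochondrial DNA, which this ribosome translates, 9 (69.2%) were called higher and 0 lower. Over all genes 23.7% were called higher and 8.13% lower. ND4L, COX1, COX3 and ND5 stayed under 1.5-fold with log2 ratios of 0.57, 0.44, 0.42 and 0.41. The sources used here do not say how ribosomal RNA was removed or selected in the libraries, and the part of that step was not tested.

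Fewer of the genes for enzymes and factors around the ribosome were called higher. Of 14 mitochondrial translation factors 2 were called higher and 4 lower, with a median of 0.074 as deposited and of -0.25 relative to the all-gene median. The release factor Mtrf1l had 11.2 FPKM in SRSF1-MKO and 5.01 FPKM in WT (log2 ratio 1.02, interval of the FPKM ratio 1.94 to 2.57), and the membrane insertase Oxa1l had 22.8 FPKM in SRSF1-MKO and 11.5 FPKM in WT (0.93). The elongation factors Tsfm, Gfm1 and Tufm had log2 ratios of 0.42, 0.32 and 0.27. At the other end, Gfm2, which recycles ribosomes after termination, had 3.70 FPKM in SRSF1-MKO and 9.82 FPKM in WT (-1.20, FPKM ratio 0.377, interval 0.324 to 0.437), and Taco1, the translational activator of the cytochrome c oxidase subunit COX1, had 10.6 FPKM in SRSF1-MKO and 23.5 FPKM in WT (-1.07, FPKM ratio 0.452, interval 0.395 to 0.516). The other genes called lower were Mtrf1, with 4.78 FPKM in SRSF1-MKO and 9.10 FPKM in WT, and Guf1, with 1.94 FPKM in SRSF1-MKO and 3.51 FPKM in WT. Of 26 measured genes for ribosome assembly and ribosomal RNA modification 3 were called higher and 2 lower. Their median was 0.25 as deposited, above the 0.21 over all 10478 genes. Relative to the 0.32 over genes of at least 5 FPKM it was -0.071. The methyltransferase of 16S RNA Mrm1 had 3.04 FPKM in SRSF1-MKO and 0.820 FPKM in WT, and Ptcd1 had 3.71 FPKM in SRSF1-MKO and 1.44 FPKM in WT. Malsu1, which binds Mrpl14 on the immature large subunit, had 10.1 FPKM in SRSF1-MKO and 6.18 FPKM in WT, and Fastkd2, which binds 16S RNA, had 4.19 FPKM in SRSF1-MKO and 2.49 FPKM in WT, a log2 ratio of 0.57 that missed the 1.5-fold mark. The 12S RNA methyltransferase Tfb1m had 1.09 FPKM in SRSF1-MKO and 2.72 FPKM in WT, and Rnmtl1, now Mrm3, had 0.534 FPKM in SRSF1-MKO and 4.75 FPKM in WT, a log2 ratio of -1.91. Among all genes 23.7% were called higher and 8.13% lower. The translation factors stood at 14.3% higher and 28.6% lower, and the assembly and modification genes at 11.5% higher and 7.69% lower, a share of lower genes near that of all genes.

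Genes for the other large complexes that share the members' setting had similar medians. Over all genes 23.7% were called higher and 8.13% lower, and relative to the all-gene median 11.4% higher and 18.1% lower. Of 80 measured genes listed as nuclear subunits of oxidative phosphorylation 52 (65%) were called higher and 0 lower, with a median of 0.73. Relative to the all-gene median 24 of them were called higher and 0 lower. That list includes Atp5s and Atp5sl, which are named like subunits, and it need not hold every subunit. Of 81 measured cytosolic ribosomal protein genes 46 (56.8%) were called higher and 0 lower, with a median of 0.68. Relative to the all-gene median 23 of these were called higher and 2 lower. The medians of these lists, 0.73 and 0.68, stood on either side of the family's 0.70. Of 12 regulators of mitochondrial biogenesis 2 (16.7%) were called higher, a share below the 23.7% of all genes, and 0 lower. The coactivator Ppargc1a had 11.9 FPKM in SRSF1-MKO and 3.23 FPKM in WT (log2 ratio 1.61, FPKM ratio 3.68, interval 3.32 to 4.07), and its nuclear receptor partner Esrra had 10.5 FPKM in SRSF1-MKO and 5.08 FPKM in WT (0.91). Yy1 and Tfam had 0.54 and 0.50, while Nrf1, at 3.47 FPKM in SRSF1-MKO and 3.54 FPKM in WT, and Gabpb1, at 1.07 FPKM in SRSF1-MKO and 1.17 FPKM in WT, had -0.022 and -0.069. The lowest was Tfb2m, a mitochondrial transcription factor, with 9.81 FPKM in SRSF1-MKO and 13.0 FPKM in WT (-0.38). The median of the regulators, 0.17 as deposited, was -0.15 relative to the all-gene median.

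**Figure D3:**
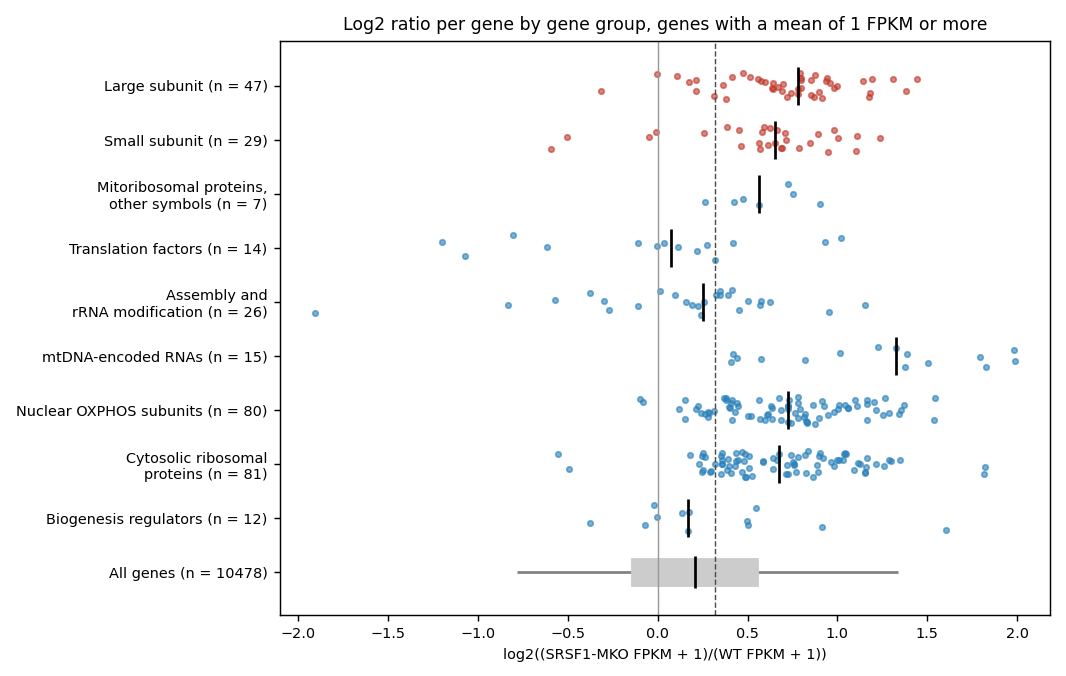
Log2 ratio per gene, SRSF1-MKO over WT, for the large and small subunit genes (red), other gene lists (blue) and all genes (grey box for the quartiles, line from the 5th to the 95th percentile), with black bars at medians, a solid line at 0 and a dashed line at 0.32, the median over genes of 5 FPKM or more. The subunits' medians of 0.78 and 0.65 lie near those of nuclear OXPHOS (0.73) and cytosolic ribosomal proteins (0.68) and right of those of translation factors (0.074) and assembly genes (0.25).

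Many members are arranged head to head with another gene. A chromosome position was given for 71 members, and the other 5, Mrps18b, Mrpl22, Mrpl40, Mrps23 and Mrps35, are placed on alternate scaffolds. Of the 71, 22 (31%) had an mRNA gene starting within 1000 bp upstream on the other strand. Among measured mRNA genes on numbered chromosomes 1015 of 8753 (11.6%) did. Partners whose start lies inside the gene were not counted. Mrpl46 and Mrps11 are such a pair of members on chromosome 7. By the deposited positions they start at 78783089 on the minus strand and at 78783168 on the plus strand, 79 bp apart. Their log2 ratios were 1.19 and -0.012, so genes that start from 1 shared stretch and encode parts of the same particle had different ratios. Among 15 measured partners outside the family 4 (26.7%) were called higher, near the 23.7% of all genes, and 2 (13.3%) lower, where 8.13% of all genes were. The partners' median was 0.35, and that of the members beside them was 0.74. Mrps12, with 0.95, lies beside the mitochondrial seryl-tRNA synthetase Sars2, which had 1.89 FPKM in SRSF1-MKO and 3.55 FPKM in WT (-0.66). Mrpl43, with 0.96, lies beside the mitochondrial DNA helicase Peo1, which had 3.49 FPKM in SRSF1-MKO and 5.81 FPKM in WT (-0.60). The order was turned for Mrpl49, with 0.36, beside Fau, a cytosolic ribosomal protein gene with 161 FPKM in SRSF1-MKO and 52.6 FPKM in WT (1.60), and also for Mrps34 beside Eme2 and Mrpl47 beside Ndufb5.

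**Figure D4:**
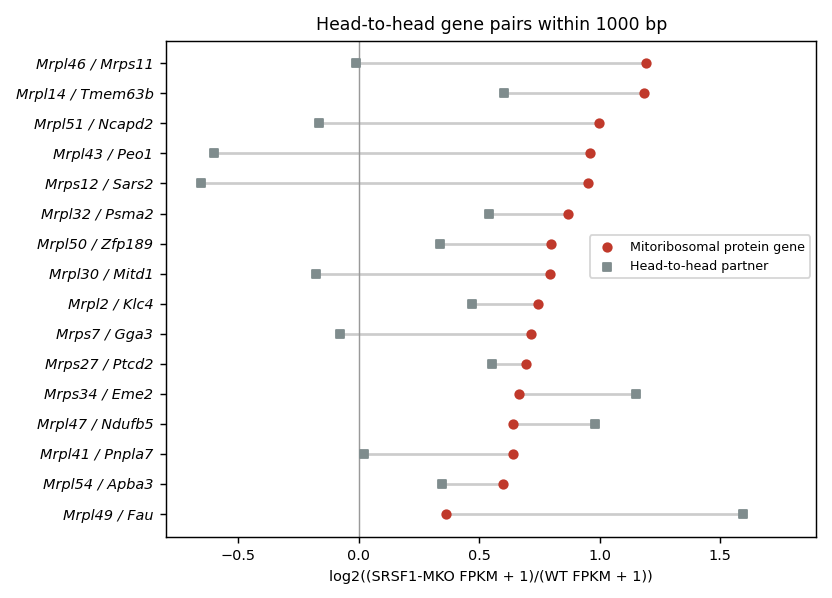
Log2 ratios of 16 mitoribosomal protein genes (red circles) and of the measured genes that start within 1000 bp upstream of them on the other strand (grey squares). A line joins each pair, and in the top row the partner, Mrps11, is itself a member. The square lies left of the circle in all but the pairs of Mrps34, Mrpl47 and Mrpl49, and the pair Mrpl46 and Mrps11 is split at 1.19 and -0.012.

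The promoters of the members with the highest and lowest ratios, and the stretch shared by Mrpl46 and Mrps11, are printed here to show how these start regions differ in letters. Each window runs from 250 bases before to 50 bases after a RefSeq start (GRCm38.p6), 5′ to 3′ on the gene's strand. A RefSeq start can differ from the deposited position, as it does for Mrps11, deposited at 78783168. The windows are chr6:83108858-83109157 on the plus strand for Mrpl53, chr7:78782881-78783180 on the plus strand for Mrps11, which also holds the start of Mrpl46 at 78783089, chr8:22411090-22411389 on the plus strand for Mrps31, and chr6:92183974-92184273 on the minus strand for Mrps25. Capitals mark matches to the searched letters of ETS/GABP factors (CCGGAAG) or YY1 (AAGATGGCG) on either strand.
Mrpl53: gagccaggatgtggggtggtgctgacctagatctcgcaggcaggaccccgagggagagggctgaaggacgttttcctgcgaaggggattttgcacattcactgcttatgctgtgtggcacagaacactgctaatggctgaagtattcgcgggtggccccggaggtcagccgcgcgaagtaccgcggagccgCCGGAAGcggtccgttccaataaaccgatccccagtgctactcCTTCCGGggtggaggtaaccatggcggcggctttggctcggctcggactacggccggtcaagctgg
Mrps11: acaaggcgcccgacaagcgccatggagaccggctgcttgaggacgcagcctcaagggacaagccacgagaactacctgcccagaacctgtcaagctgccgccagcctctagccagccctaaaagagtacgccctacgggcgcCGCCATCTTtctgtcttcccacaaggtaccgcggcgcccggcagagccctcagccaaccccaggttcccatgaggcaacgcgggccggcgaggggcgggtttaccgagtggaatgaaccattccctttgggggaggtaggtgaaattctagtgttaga
Mrps31: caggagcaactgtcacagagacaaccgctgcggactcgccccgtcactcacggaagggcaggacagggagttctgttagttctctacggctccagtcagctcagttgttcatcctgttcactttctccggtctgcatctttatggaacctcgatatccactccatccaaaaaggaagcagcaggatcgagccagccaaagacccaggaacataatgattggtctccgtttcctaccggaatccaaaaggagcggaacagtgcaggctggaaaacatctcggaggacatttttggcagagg
Mrps25: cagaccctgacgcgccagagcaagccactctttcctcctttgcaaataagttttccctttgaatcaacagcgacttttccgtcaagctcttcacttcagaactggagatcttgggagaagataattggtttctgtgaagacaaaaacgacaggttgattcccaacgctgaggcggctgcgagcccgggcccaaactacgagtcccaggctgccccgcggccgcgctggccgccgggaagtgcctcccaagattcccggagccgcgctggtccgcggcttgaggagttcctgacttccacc
The Mrpl53 window held 2 ETS/GABP matches and the Mrps11 window 1 YY1 match, while the windows of Mrps31 and Mrps25 held none of the searched motifs. The windows of 2 members with high log2 ratios, Mrpl20 (1.38) and Mrpl46 (1.19), are not printed here and also held none. The Mrpl20 window, chr4:155802628-155802927 on the plus strand, ends before the deposited start at 155803618, so the stretch at that start was not searched.

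Over the family, 67 members matched the promoter table, with 73 windows. GABP, an ETS family factor also called NRF2, NRF1 and YY1 are known to bind promoters of many nuclear genes for mitochondria. The ETS/GABP letters stood in 24 of 73 member windows (32.9%), against 18.2% of 9937 windows of measured genes and 8.86% of all 32851 windows. The YY1 letters stood in 8 member windows (11%), against 3.39% and 1.4%, and these were windows of Mrpl35, Mrpl36, Mrpl37, Mrpl42, Mrps11, Mrps18a, Mrps24 and Mrps27. The NRF1 letters, GCGCA followed directly by TGCGC, stood in 3 windows (4.11%), those of Mrpl32, Mrpl39 and Mrpl9, against 2.12% and 0.971%, and a looser form, GCGC on each side of any 2 bases, stood in 13 (17.8%), against 13.7% and 6.23%. The looser form contains the strict one. The letters of the ERR receptors, AAGGTCA, stood in 4 windows (5.48%), against 3.18% and 4.72%. The letters of ATF4 sites, TGATGNAA, stood in 0 of 73 windows, against 2.17% and 3.97%. Both strands were searched, none of these motifs but the NRF1 forms overlap by design, and a match is a description of letters. The median log2 ratio of members with and without the letters was 0.79 over the 24 members with ETS/GABP letters and 0.67 over the 43 without, and 0.68 over the 8 with YY1 letters and 0.74 over the 59 without. It was 0.94 over the 3 members with the strict NRF1 letters and 0.71 over the 64 without, and 0.85 over the 13 with the looser form and 0.69 over the 54 without. For the ERR letters it was 0.44 over 4 members with them and 0.74 over 63 without. These differences were not tested.

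**Figure D5:**
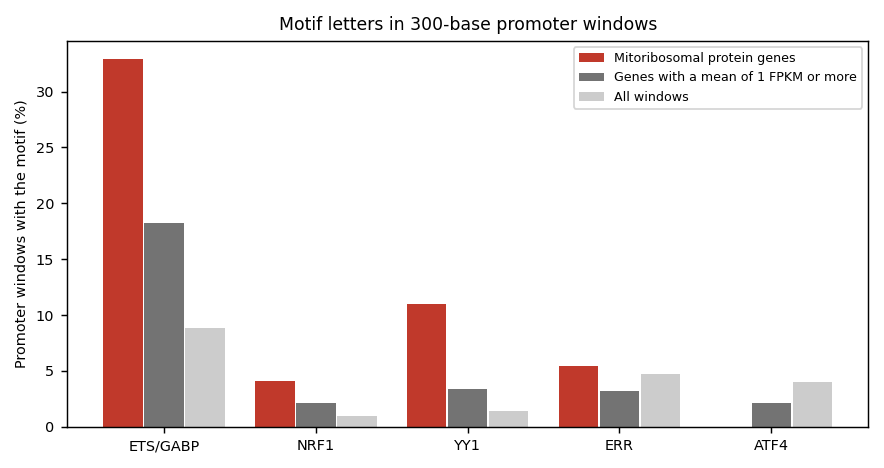
Share of promoter windows (%) that hold each factor's motif letters on either strand, for the 73 windows of mitoribosomal protein genes (red), the 9937 windows of measured genes (dark grey) and all 32851 windows (light grey). The members' bar exceeds both grey bars for ETS/GABP (32.9%), NRF1 (4.11%), YY1 (11%) and ERR (5.48%), and the member bar for ATF4 is 0.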

How the data were processed

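Hindlimb muscle of 1 SRSF1-MKO and 1 WT sample was sequenced. The authors deposited 1 table of FPKM values holding 1 column for either genotype; its name and values give the unit. Bowtie and mm10 are named in the submitters' processing notes. The sources used here do not give the counting method or gene annotation. Of the table, 1 emptied line was not analysed here.

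From these values the log2 ratio with a pseudocount of 1 was computed for genes whose mean was at least 1 FPKM, with calls at 1.5-fold (Python 3.11.15, pandas 2.3.3, SciPy 1.17.1). Read totals were recovered from the steps that whole reads leave in FPKM: 92.8% of 19044 rows above 0 in both libraries had a whole-number ratio (relative tolerance 1e-11) times 1 constant, against 0.294% with that constant off by 1 in 10000. Reads per gene, from 110 to 7478 per member in SRSF1-MKO and 70 to 4773 in WT, are approximate: FPKM times total times the shortest RefSeq-linked protein-coding transcript in GENCODE M21, or the span for genes of mitochondrial DNA. Clopper-Pearson 95% intervals on them cover counting error only. The transcript can be longer than the deposited span, as for Mrpl51 (3427 bases, span 125192200 to 125194392), Mrps26 and Mrpl32. For such genes the reads are overstated and the interval is too narrow. The scripts were tested on simulated data.

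The members, lists and rules were chosen with earlier results of these data known. Any member could be named. Full values with an interval are given for the members ranked in the top 8 or bottom 8 by log2 ratio, the 5 most abundant and those with exceptional names. From other lists, all genes were eligible in lists under 8 genes, and otherwise the top 4 and bottom 2 by ratio. Tufm, Guf1, Mtrf1 and Nrf1 were named after their values were seen. ND4L and COX1, which stayed under 1.5-fold, were also named outside this rule. Promoters came from RefSeq (GRCm38.p6). Alternatives were other scalings, pseudocounts, filters, folds and member lists.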

Additional observations from a re-analysis of the deposited data

How the results depend on the processing

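The count of 51 members called higher became 11 at 2-fold, 19 with the all-gene median set to 0 and 23 under TPM scaling. The count of 1 called lower became 3 with the median set to 0, 3 under TPM scaling, 2 with a pseudocount of 0.1 and 0 with a pseudocount of 5. The count called higher became 55 under TPM without mitochondrial DNA and ribosomal RNA rows. Under the other settings (a pseudocount of 0.1 or 5, no filter, a mean of 5 FPKM or more, structural assignment of Mrps30, Mrps18a and Mrps36, and addition of the 7 proteins under other symbols) 38 to 55 were called higher. The family's median log2 ratio ranged from 0.37 to 0.75 and the large-minus-small difference from 0.09 to 0.13. With the all-gene median of 0.32 set to 0, the median was 0.24 for proteins under other symbols. The sign then turned for translation factors (-0.25), assembly genes (-0.071) and biogenesis regulators (-0.15). The assembly genes' deposited median of 0.25 was above the 0.21 over all 10478 genes. Under TPM scaling the sign turned for translation factors (-0.21) and regulators (-0.087). The median scaling takes 0.32 off every gene's log2 ratio by construction, and the TPM scaling takes off an amount that differs between genes, because the pseudocount stays at 1. Setting Srsf1 against the all-gene median, an alternative chosen after seeing the data, gave -1.25. No paired analysis was possible because each genotype has 1 library. At this depth there are 7 members whose counting interval includes 1.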
